A study of Homo sapiens with 8 samples.

Results

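H9 (WA09) human embryonic stem cells (hESCs) sampled at passages in the 300s, called P4 hESCs, were compared with cells of the same line at passages in the 40s, called P1 hESCs, which is the longest culture interval of the series. The comparison was chosen by the passage number in the sample labels and holds 4 of the 8 samples, 2 of P1 and 2 of P4 hESCs. H9 is an established line derived from a human blastocyst, so that P1 and P4 hESCs share 1 genome apart from what changed in culture. Every sample was grown without feeder cells in mTeSR1 medium on Matrigel and passaged with dispase, and no sample carried a transgene or received a treatment. The other 4 samples, P2 hESCs (passages in the 100s) and P3 hESCs (passages in the 200s), entered the model for the spread between samples and are described only where genes called in P4 hESCs were looked up in samples that the comparison did not use. The labels do not say whether the 2 samples of a line came from separate cultures, so that the p-values measure the spread between these samples, which may be technical.

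Long culture exposes hESCs to repeated dissociation, and cells that divide or survive better take over the dish. Gains of chromosome band 20q11.21 are among the changes known to recur in such cultures, and the band holds BCL2L1, whose product BCL-xL blocks cell death, and TPX2, whose product builds the mitotic spindle and activates Aurora A kinase. Cultured pluripotent cells are also known to gain or lose DNA methylation at promoters and imprinted genes, which can silence or switch on single genes.

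Each value is a count of reads assigned to a gene, scaled to the library with TMM factors and given in CPM, its share of the library's scaled count total. A log2 fold change (log2FC) is P4 minus P1 hESCs. A differentially expressed gene (DEG) had an absolute log2FC above 1 and a Benjamini-Hochberg adjusted p under 0.01 from edgeR's quasi-likelihood test over 19499 tested genes, and every adjusted p below comes from that test. The libraries held 33772161 and 34550011 counts in P1 hESCs and 31067464 and 26874899 counts in P4 hESCs (replicates 1 and 2). At this depth, 3 counts are worth up to 0.0945 CPM in P1 and 0.103 CPM in P4 hESCs, and a gene at or under 3 counts in both samples of a line was taken as not detectable there. Its fold is then a lower bound, computed against the larger of these levels for that line, that covers counting error only. The mitochondrial share of the counts was 9.84% and 18.5% in P1 and 17.2% and 5.89% in P4 hESCs, so that it differed more within a line than between the lines. The hESC markers POU5F1, SOX2, NANOG, LIN28A, DPPA4, TDGF1 and L1TD1 summed to between 2729 and 4459 TPM (the authors' unit, a transcript share scaled by length) in the 4 samples, with none near 0. Of the 12 blood cell and 8 endothelial markers, 10 and 5 were under 1 TPM in every one of the 4 samples. Of the 12 fibroblast and stroma markers, only 4 were. That list summed to 709 and 635 TPM in the P1 samples and to 632 and 863 TPM in the P4 samples. The summed blood cell markers were at 2.15 and 1.78 TPM in the P1 and 5.24 and 5.66 TPM in the P4 samples, and their part in the results below was not tested.

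P4 hESCs had 412 DEGs, which is 2.11% of the tested genes. Of these, 186 were higher (0.954%) and 226 were lower (1.16%) than in P1 hESCs. The 2 P4 samples lay beyond the 2 P1 samples for all 412, which the thresholds themselves favour. How often this held among all tested genes was not counted. The median log2FC of the DEGs was 2.46 among the higher and -2.23 among the lower genes, where the median of all tested genes was -0.01. Since whole cultures were measured, fewer cells that express a gene and less of its RNA per cell cannot be told apart. Of the 412, 338 were protein coding, 45 were lincRNA or antisense genes and 21 were pseudogenes. Among them, 38 of the higher genes were not detectable in P1 hESCs and 23 of the lower genes were not detectable in P4 hESCs. The median TPM in the line with the higher mean was 8.07 for DEGs and 7.36 for all tested genes. Each of the 4 fits that left out 1 library had 1 sample in a line, with less information on the spread, and called fewer DEGs. A call lost in such a fit, here and below, therefore does not show that it rested on that library. No DEG changed sign in any of these fits.

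Of the 12 largest rises, 4 lay in a block of zinc finger genes at 19q13.43 that ends at the imprinted gene PEG3, where transcripts went from not detectable to moderate levels. PEG3, a zinc finger gene normally transcribed from the paternal copy, was at 0 and 0.0315 CPM in the P1 samples and at 45.4 and 39.4 CPM in the P4 samples, at least 448-fold higher (log2FC 11.14, standard error 0.73, adjusted p = 2.98e-06). ZNF667-AS1, a long noncoding RNA, was at 0 CPM in both P1 samples and at 16.4 and 12.8 CPM in the P4 samples, at least 154-fold higher (adjusted p = 1.3e-05). Across the region from 56368099 to 56840728 on chromosome 19 of GRCh38, 7 of the 17 tested genes were DEGs, all of them higher. Besides PEG3 and ZNF667-AS1, ZNF471 was at 0 CPM in both P1 samples and at 4.91 and 3.33 CPM in the P4 samples, and ZIM2-AS1 was at 0 CPM in both P1 samples and at 3.61 and 2.73 CPM in the P4 samples. ZNF667, ZNF835 and ZNF542P, named after their values had been seen, complete the block with log2FC values of 9.57, 3.43 and 1.604. The 10 other tested genes between them lay from -0.05 to 1.23 and none passed. These 10 include ZFP28 and ZNF71 (log2FC 0.97 and 1.07, adjusted p = 0.0333 and 0.0285), both named after their values had been seen, so that genes with large rises alternated with genes that did not pass. PEG3, ZNF667, ZNF667-AS1, ZNF471 and ZIM2-AS1 remained DEGs without any one of the 4 libraries, while ZNF835 was lost without 1 and ZNF542P without 2 of them.

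ZNF667 and ZNF667-AS1 lie head to head on opposite strands and share 816 bases at their starts. The promoter of ZNF667 (250 bases before to 50 bases after its start, chr19:56477296-56477595, reverse strand, GRCh38.p14, from RefSeq) is shown because it serves a gene that was silent in 1 line and active in the other, with each CG dinucleotide, the site of DNA methylation, in capitals:
ZNF667: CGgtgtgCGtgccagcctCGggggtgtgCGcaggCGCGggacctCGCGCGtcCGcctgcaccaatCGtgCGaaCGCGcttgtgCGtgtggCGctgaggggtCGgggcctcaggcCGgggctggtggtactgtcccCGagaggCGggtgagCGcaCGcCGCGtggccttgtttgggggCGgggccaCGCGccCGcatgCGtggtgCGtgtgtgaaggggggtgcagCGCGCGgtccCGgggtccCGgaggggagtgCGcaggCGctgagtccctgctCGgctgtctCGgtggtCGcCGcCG
It holds 42 CG dinucleotides, where the tested genes with a promoter in the RefSeq table had a median of 25. The higher DEGs that were not detectable in P1 hESCs had a median of 14 over the 21 of 38 with a promoter, and the lower DEGs that were not detectable in P4 hESCs had 15 over 16 of 23. All 35116 promoters of the RefSeq table, those of untested genes included, also had a median of 14. Methylation was not measured in these samples.

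**Figure D1:**
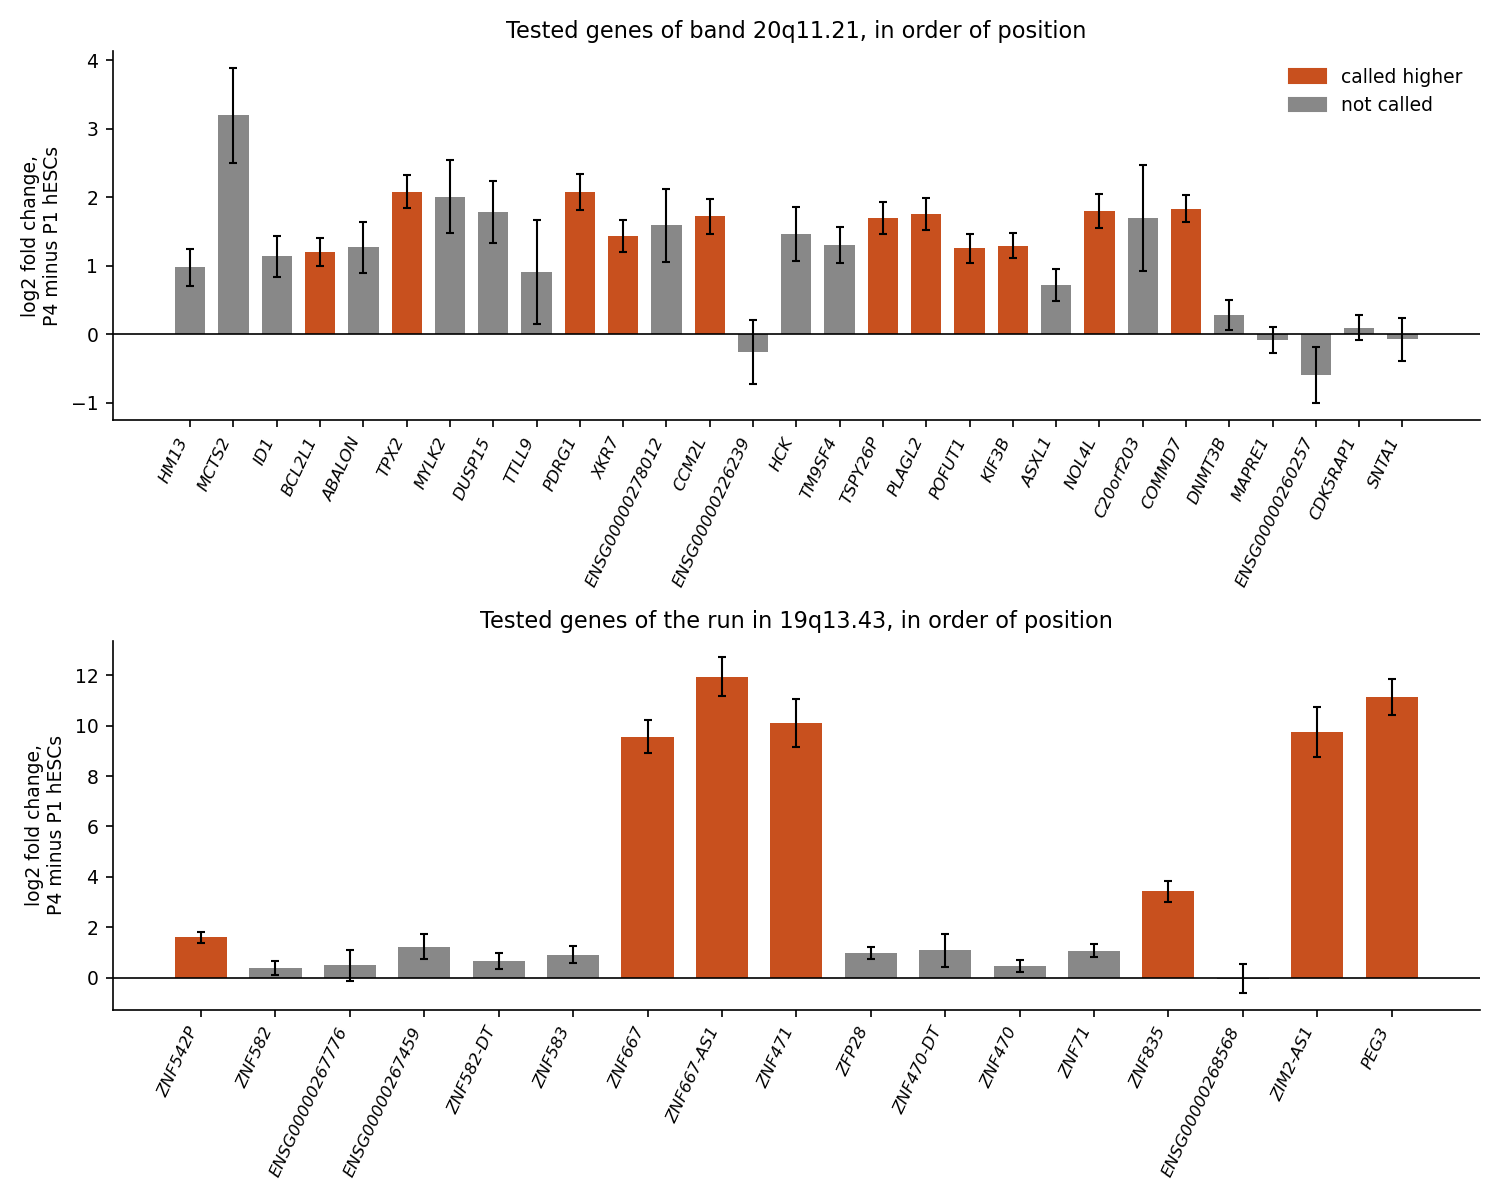
Bars give the log2FC (P4 minus P1 hESCs) of each tested gene in order of position, with its standard error, for band 20q11.21 (top) and the block at 19q13.43 (bottom), and DEGs are in orange. In 20q11.21 the DEGs reached from BCL2L1 to COMMD7 at similar size, whereas at 19q13.43 the bars of ZNF667, ZNF667-AS1, ZNF471, ZIM2-AS1 and PEG3 stand far above their neighbours (values of genes not detectable in P1 hESCs are fitted and are no bound).

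Some zinc finger genes elsewhere on chromosome 19 were higher DEGs as well. Genes of this class encode DNA-binding proteins, many of which carry a KRAB domain and repress transposable elements. Of the 227 tested ZNF genes of chromosome 19, those of the block at 19q13.43 included, 11 were higher (4.85%) and 1 was lower, and 192 had a positive log2FC with a median of 0.44. ZNF560 at 19p13.2 was at 0.0287 and 0.0945 CPM in the P1 samples and at 45.7 and 49.4 CPM in the P4 samples, at least 503-fold higher (log2FC 9.54, standard error 0.46, adjusted p = 5.37e-07). ZNF229 at 19q13.31 was at 0.115 and 0.126 CPM in the P1 samples and at 17.3 and 17.7 CPM in the P4 samples (log2FC 7.14, standard error 0.43). The replicates of each line lay close together for both genes. ZNF880 and ZNF528, neighbours at 19q13.41, had mean values of 0.825 and 0.284 CPM in P1 and 24.7 and 17.6 CPM in P4 hESCs, and with ZNF528-AS1 and ZNF578 (named after their values had been seen) they made 4 DEGs among the 5 tested genes of their interval. The exception in direction was ZNF726 at 19p12, a DEG that was lower, at 2.52 and 3.40 CPM in the P1 samples and 0 CPM in both P4 samples. Between 8 and 11 of these genes were higher DEGs when 1 library was left out. These genes are similar in sequence, so that the authors' counting could have split reads between them and single counts are uncertain.

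Interferon-stimulated genes, which encode sensors and effectors of the antiviral response, were the functional list with the most DEGs. Of 43 tested members, 14 were higher (32.6%) and none was lower, 39 had a positive log2FC, and the median was 0.67. The IFIT genes at 10q23.31, whose products bind foreign RNA, moved most among the abundant members. IFIT1 was at 3.09 and 2.14 CPM in the P1 samples and at 118 and 138 CPM in the P4 samples (log2FC 5.61, standard error 0.36, adjusted p = 2.41e-06). IFIT2 was at 0.315 and 0.158 CPM and at 87.2 and 104 CPM in the same order (log2FC 8.62, standard error 0.60, adjusted p = 4.91e-06). IFIT3 was at 1.06 and 0.567 CPM and at 45.5 and 61.3 CPM (log2FC 6.02, standard error 0.42, adjusted p = 4.91e-06). The 3 genes are the only tested ones in their interval, and the lines were far apart for each.

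Of the oligoadenylate synthetase family, named for enzymes that activate RNase L on sensing double-stranded RNA, OAS1, OAS2 and OASL also rose, while OAS3 (named after its values had been seen) had a log2FC of 1.14 and did not pass (adjusted p = 0.063). OAS1 and OASL were at 0 CPM in both P1 samples and averaged 3.69 and 4.33 CPM in P4 hESCs, at least 39.0-fold and 45.8-fold higher, and OAS2 was at least 59.6-fold higher. IFI44 was at 0 CPM in both P1 samples and at 4.09 and 4.21 CPM in the P4 samples. ISG15, a ubiquitin-like modifier, was already expressed in P1 hESCs at 14.1 and 13.0 CPM and was at 83.0 and 117 CPM in the P4 samples (log2FC 2.89, standard error 0.38, adjusted p = 7.79e-04). The remaining DEGs of the list, singled out with their values known, were HERC5, IFIH1, RIGI, DDX60, SAMD9 and MX2, with log2FC values from 1.73 to 4.23. IFNL1, which encodes the secreted interferon lambda and is no member of the list, was at 0 CPM in both P1 samples and at 2.47 and 3.97 CPM in the P4 samples (adjusted p = 0.0012), and its sequence is close to those of other interferon lambda genes. Without a single library, the number of higher DEGs in the list was between 6, without P1 replicate 2, and 12, without P4 replicate 1, and it was 9 without P1 replicate 1. IFIT1, IFIT2, IFIT3, OAS1, OAS2 and IFI44 remained DEGs in each of these fits.

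The promoters of IFIT1 (chr10:89392373-89392672, forward strand), IFIT3 (chr10:89327747-89328046, forward strand) and ISG15 (chr1:1013247-1013546, forward strand) are shown because these genes moved together, with matches to GAAA, any 2 bases, then GAAA, the core of the element that interferon regulatory factors bind, in capitals (GRCh38.p14, RefSeq, 5′ to 3′). On the other strand a match reads TTTC, any 2 bases, then TTTC:
IFIT1: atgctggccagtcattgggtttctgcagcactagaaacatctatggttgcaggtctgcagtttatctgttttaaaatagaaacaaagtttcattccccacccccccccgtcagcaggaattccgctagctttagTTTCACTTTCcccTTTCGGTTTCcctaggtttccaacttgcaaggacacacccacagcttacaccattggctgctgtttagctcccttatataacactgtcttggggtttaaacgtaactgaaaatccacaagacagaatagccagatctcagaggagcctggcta
IFIT3: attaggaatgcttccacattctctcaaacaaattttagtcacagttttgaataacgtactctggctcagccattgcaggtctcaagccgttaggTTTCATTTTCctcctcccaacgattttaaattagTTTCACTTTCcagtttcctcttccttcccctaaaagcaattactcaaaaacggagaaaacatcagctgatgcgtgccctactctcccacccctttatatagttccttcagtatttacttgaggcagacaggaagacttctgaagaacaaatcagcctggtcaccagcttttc
ISG15: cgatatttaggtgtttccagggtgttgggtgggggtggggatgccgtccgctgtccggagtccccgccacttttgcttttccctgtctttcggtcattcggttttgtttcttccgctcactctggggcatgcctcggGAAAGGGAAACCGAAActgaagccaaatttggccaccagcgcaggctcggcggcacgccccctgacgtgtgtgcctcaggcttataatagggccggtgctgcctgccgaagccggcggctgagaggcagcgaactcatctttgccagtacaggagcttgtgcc
Each holds 2 matches, counting both strands and overlapping matches. A match occurred in 3.57% of all 35116 promoters of the table and in 2.84% of those of the tested genes. Among the DEGs of the interferon list it occurred in 8 of the 10 with a promoter in the table, and among the members that did not pass it occurred in 14 of 23, so that the letters were common in both. OAS1 and RIGI had none in this window.

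**Figure D2:**
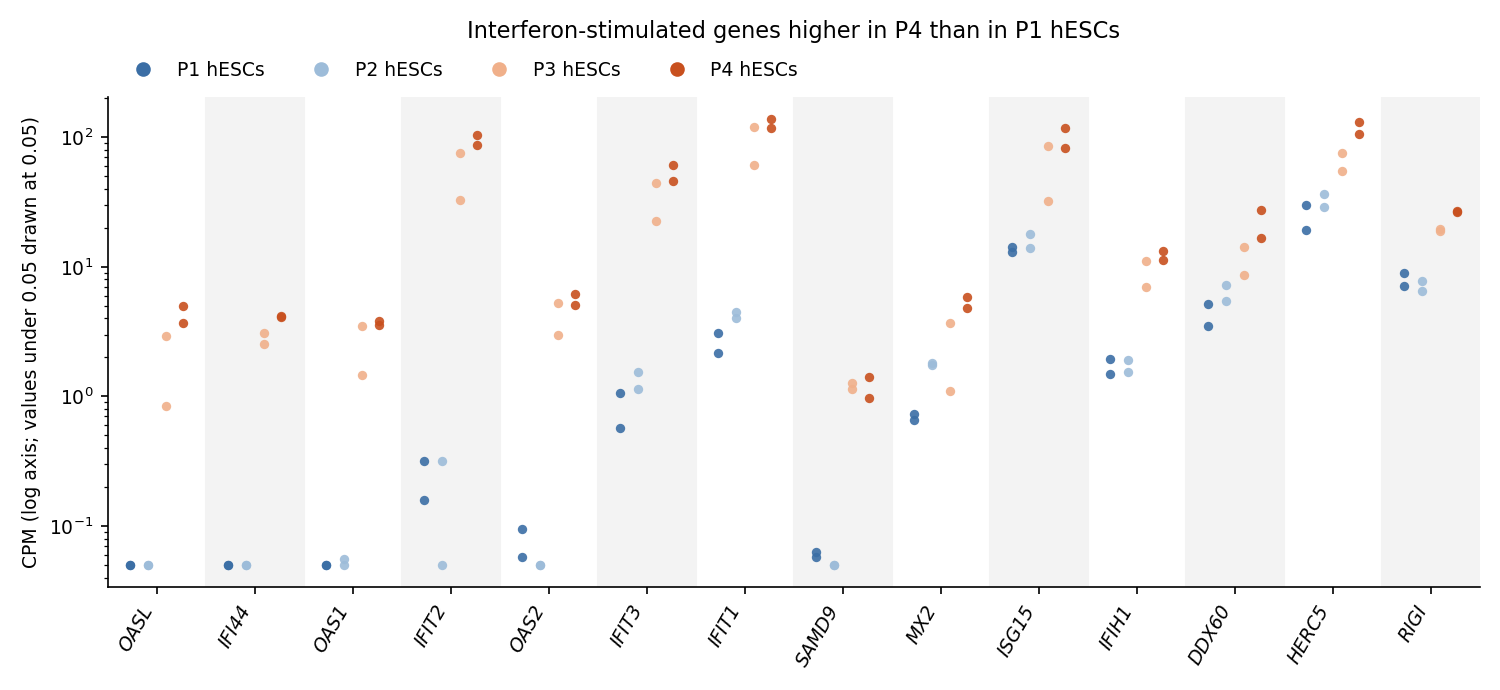
Points give the CPM (log axis) of each sample of P1, P2, P3 and P4 hESCs for the 14 interferon-stimulated genes that were higher in P4 than in P1 hESCs. Both P4 samples lie above both P1 samples for each gene, from IFIT1 at 118 and 138 CPM to SAMD9 at 1.41 and 0.976 CPM.

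Among the falls, transcripts of a few genes all but disappeared from P4 hESCs. CHCHD2, whose product sits between the mitochondrial membranes and supports respiration, was at 149 and 127 CPM in the P1 samples and at 0.137 and 0.101 CPM in the P4 samples, a ratio of mean CPM of 1156 (log2FC -10.13, standard error 0.36, adjusted p = 2.55e-08). CRYZ, a quinone reductase, was at 30.9 and 26.5 CPM in the P1 samples and at 0.0343 and 0 CPM in the P4 samples, at least 279-fold lower (log2FC -10.44, standard error 0.53, adjusted p = 5.66e-07). TYW3, an enzyme of transfer RNA modification, was at 53.9 and 68.1 CPM and at 0.24 and 0.101 CPM in the same order (log2FC -8.46, standard error 0.45, adjusted p = 6.06e-07). CRYZ and TYW3 are neighbours at 1p31.1 on opposite strands and share 257 bases at their starts, and they were the only tested genes of their interval. The CHCHD2 sequence has copies elsewhere in the genome, so that its low remaining counts are uncertain.

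The promoters of CHCHD2 (chr7:56106427-56106726, reverse strand) and CRYZ (chr1:74733001-74733300, reverse strand) are shown because both genes were well expressed in P1 and near 0 in P4 hESCs, with CG dinucleotides in capitals (GRCh38.p14, RefSeq):
CHCHD2: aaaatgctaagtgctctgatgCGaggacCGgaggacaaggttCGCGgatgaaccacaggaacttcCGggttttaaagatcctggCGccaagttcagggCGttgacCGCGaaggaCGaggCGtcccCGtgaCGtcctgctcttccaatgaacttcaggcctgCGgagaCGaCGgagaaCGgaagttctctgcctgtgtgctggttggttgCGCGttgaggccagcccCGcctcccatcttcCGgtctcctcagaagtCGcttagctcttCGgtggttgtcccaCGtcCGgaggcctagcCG
CRYZ: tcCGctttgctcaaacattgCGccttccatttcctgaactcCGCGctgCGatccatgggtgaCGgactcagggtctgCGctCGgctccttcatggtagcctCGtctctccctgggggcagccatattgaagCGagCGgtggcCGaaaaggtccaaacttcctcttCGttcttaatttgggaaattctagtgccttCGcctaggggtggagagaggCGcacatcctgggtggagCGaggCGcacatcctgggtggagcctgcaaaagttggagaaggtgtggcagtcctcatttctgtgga
They hold 26 and 17 CG dinucleotides, beside the median of 25 over the tested genes.

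Further falls to near 0 included those of zinc finger genes and noncoding RNAs. ZNF680 at 7q11.21 was at 13.1 and 16.3 CPM in the P1 samples and at 0.0343 and 0.0673 CPM in the P4 samples, at least 142-fold lower. ZNF717 at 3p12.3 was at 4.27 and 4.25 CPM in the P1 samples and at 0 CPM in both P4 samples, at least 41.4-fold lower. LINC00662, a long noncoding RNA at 19q11, was at 7.34 and 6.77 CPM and at 0 CPM in both P4 samples, at least 68.5-fold lower, and 2 of its 3 tested neighbours, LINC02987 and a lincRNA without a symbol, were lower DEGs as well. COL22A1, a collagen of tissue junctions, was at 7.22 and 13.3 CPM in the P1 samples and at 0 CPM in both P4 samples, at least 99.4-fold lower. TRIM4, a ubiquitin ligase, was at least 80.6-fold lower and PTPRT, a receptor tyrosine phosphatase, at least 51.4-fold lower. All 9 falls named here with values remained DEGs without any one of the 4 libraries. TWIST2, a transcription factor of mesenchymal cells, and HSD17B7P2, a pseudogene close in sequence to HSD17B7, were at least 10.6-fold and 12.3-fold lower. TWIST2 was not called in any of the 4 fits that left out a library, and HSD17B7P2 in 1 of them.

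**Figure D3:**
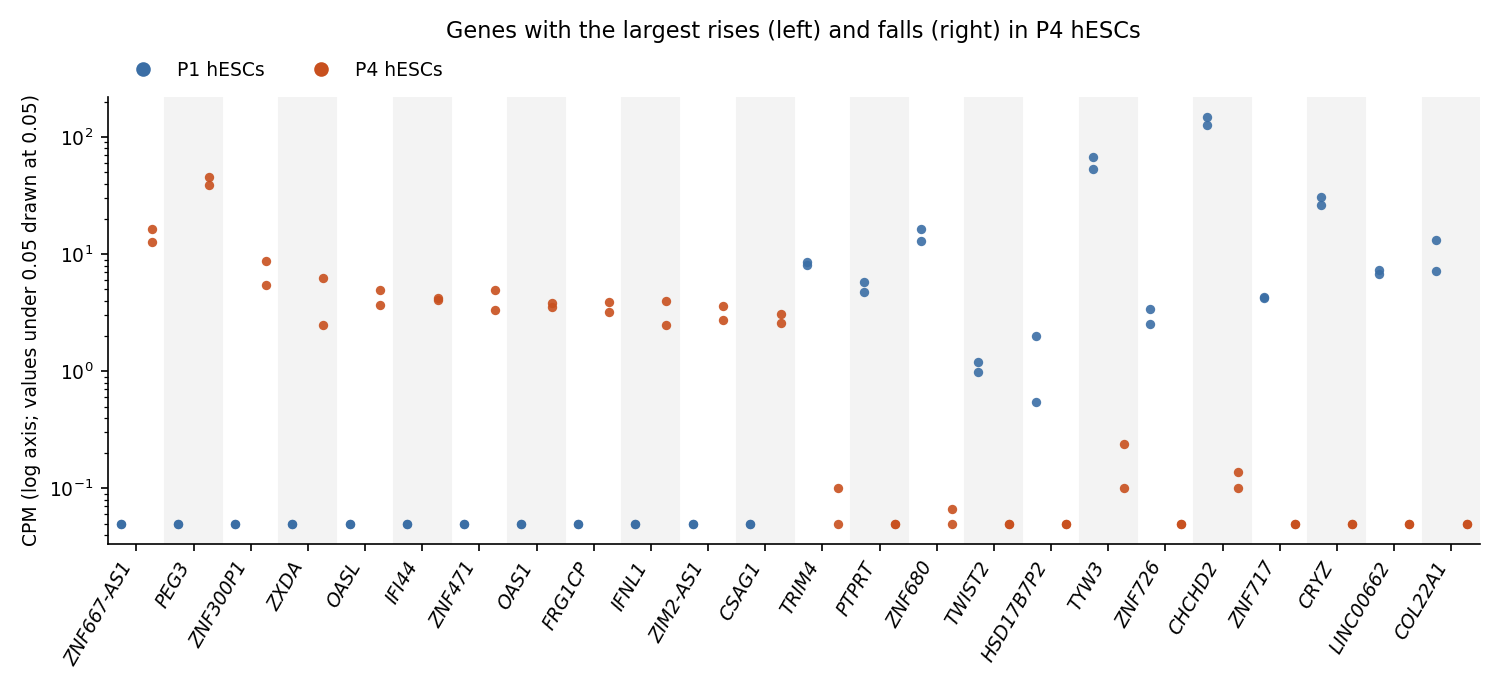
Points give the CPM (log axis) of the 2 P1 and 2 P4 samples for the 12 largest rises (left) and 12 largest falls (right) among DEGs with a symbol. P4 points of the rises run from 2.47 CPM for IFNL1 to 45.4 CPM for PEG3 and P1 points of the falls from 0.544 CPM for HSD17B7P2 to 149 CPM for CHCHD2, with the other line at or near the lower end of the axis.

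Imprinted genes changed in both directions, and the germline DEGs were higher. Imprinted genes are transcribed from the copy of a single parent and are marked by methylation. Of 23 tested imprinted genes, 2 were higher (PEG3 and INPP5F) and 2 were lower (NAP1L5 and H19), and the median log2FC was -0.24. The exons of INPP5F, a phosphoinositide phosphatase gene with an imprinted isoform, overlap those of a gene without a symbol on the same strand (log2FC 2.68). The split of reads between the 2 genes is therefore uncertain. INPP5F was at 43.6 and 38.5 CPM in the P1 samples and at 170 and 248 CPM in the P4 samples (log2FC 2.35, standard error 0.24, adjusted p = 1.02e-04). NAP1L5, normally transcribed from the paternal copy, was at 3.30 and 1.95 CPM and at 0 and 0.0336 CPM in the same order, at least 25.5-fold lower. H19, a maternally expressed noncoding RNA, was at 4.10 and 4.85 CPM and at 0.79 and 1.04 CPM (log2FC -2.28, standard error 0.35, adjusted p = 0.00222), and it passed in 1 of the 4 fits without a library. Germline genes, which are silent in most somatic cells, had 15 tested members, of which 3 were higher and none was lower. MAGEA4, a cancer-testis gene, was at 0.201 and 0.252 CPM in the P1 samples and at 8.62 and 7.30 CPM in the P4 samples (log2FC 5.12, standard error 0.30, adjusted p = 1.21e-06). CSAG1 was at 0 CPM in both P1 samples and at 2.58 and 3.10 CPM in the P4 samples, at least 29.99-fold higher, and CSAG3 was at least 26.8-fold higher. The CSAG genes at Xq28 are near-identical copies, so that their counts cannot be kept apart with certainty. The median over the germline list was 0.03, and none of its other 12 members passed.

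Among the most abundant higher DEGs, TMSB4X, which binds actin monomers, was at 509 and 386 CPM in the P1 samples and at 1769 and 1802 CPM in the P4 samples (log2FC 2.00, standard error 0.21, adjusted p = 1.58e-04). LGALS1, which encodes galectin, a sugar-binding protein of the cell surface, was at 7.05 and 6.21 CPM and at 36.9 and 57.1 CPM (log2FC 2.83, standard error 0.25, adjusted p = 3.92e-05). S100A11, a calcium-binding protein, PDHA1, a subunit of pyruvate dehydrogenase, and TCEAL9 were also higher, with log2FC values of 1.34, 1.19 and 1.14. Of these, TMSB4X and LGALS1 kept their calls in all 4 fits without a library, S100A11 in 1, and PDHA1 and TCEAL9 in none. TMSB4X has processed pseudogenes of similar sequence.

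Of the metallothionein genes, whose products bind zinc and copper, MT1X, MT2A and MT1H were lower DEGs. MT1X was at 264 and 262 CPM in the P1 samples and at 69.1 and 85.1 CPM in the P4 samples (log2FC -1.77, standard error 0.22, adjusted p = 4.74e-04). MT2A was at 89.5 and 107 CPM and at 29.7 and 17.1 CPM (log2FC -2.07, standard error 0.33, adjusted p = 0.00286), and MT1H, named after its values had been seen, had a log2FC of -1.99. The 3 genes stand close together at 16q13 among 9 tested genes, of which the other 6 did not pass, and metallothionein sequences are alike. MT1X passed in all 4 fits without a library, MT1H in 2 and MT2A in 1. Other abundant genes were lower as well. CLU, a secreted chaperone, was at 311 and 432 CPM and at 92.6 and 69.8 CPM (log2FC -2.19, standard error 0.31), and MFGE8, a secreted adhesion protein, was at 1066 and 1830 CPM and at 553 and 556 CPM (log2FC -1.39, standard error 0.26). TPM1 and TAGLN, which bind actin filaments, had log2FC values of -1.29 and -1.502, and ESRG, a noncoding RNA abundant in hESCs, had -1.12. CLU passed in 2 and MFGE8 in 1 of the fits without a library, and TPM1, TAGLN and ESRG in none. THBS1, which encodes the matrix protein thrombospondin and was named after its values had been seen, was at 441 and 922 CPM in the P1 samples and at 55.2 and 71.2 CPM in the P4 samples (log2FC -3.43, standard error 0.33, adjusted p = 7.28e-05).

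Of 37 tested collagen, laminin and integrin genes, 31 had a negative log2FC, with a median of -0.69, but only 4 were lower DEGs and 1 was higher. COL4A6, a chain of basement membrane collagen, was at 74.95 and 129 CPM in the P1 samples and at 25.5 and 33.5 CPM in the P4 samples (log2FC -1.79, standard error 0.26, adjusted p = 0.00149). COL9A3 and HSPG2, which encodes perlecan, had log2FC values of -1.54 and -1.49, and COL4A5, the neighbour of COL4A6 at Xq22.3 (named after its values had been seen), had -1.21. P1 replicate 2 was above P1 replicate 1 for each of these 4 genes, and the higher DEG was LAMA4, at a mean of 1.42 CPM in P1 and 4.57 CPM in P4 hESCs. Without P1 replicate 2 or without P4 replicate 1, no gene of the list was a lower DEG, and 1 was without P4 replicate 2, while LAMA4 passed in none of the 4 fits. YAP and TAZ are cofactors that carry signals from the matrix and the cytoskeleton to the nucleus. Of 22 tested genes of a list of their targets, 16 had a negative log2FC (median -0.56), 2 were lower DEGs and none was higher. AXL, a receptor tyrosine kinase, was at 64.5 and 75.3 CPM in the P1 samples and at 30.2 and 28.5 CPM in the P4 samples (log2FC -1.25, standard error 0.20, adjusted p = 0.00311), and NT5E, a surface nucleotidase, had a log2FC of -2.30 at a mean of 1.93 CPM in P1 hESCs. Neither passed in any fit without a library. CCN2 (log2FC -1.33, standard error 0.26, adjusted p = 0.0111) and AJUBA (-0.97, standard error 0.19, adjusted p = 0.011) stayed above the threshold of 0.01. AJUBA is also 1 of the 34 tested Hippo components, among which there was no DEG (median -0.10). YAP1 was at a log2FC of -0.18 (adjusted p = 0.699), WWTR1, which encodes TAZ, at 0.20 (adjusted p = 0.648) and TEAD4 at 0.65 (adjusted p = 0.128). The sign of YAP1 turned on the log2(TPM + 1) and log2(TPM + 0.1) scales and without P1 replicate 1 or P4 replicate 2.

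Among the listed genes of the NODAL, BMP, FGF and WNT pathways, which keep hESCs pluripotent or drive their differentiation, NODAL, INHBA and BMP2 were DEGs. NODAL, a ligand of the TGF-beta family that maintains pluripotency, was at 3.07 and 3.21 CPM in the P1 samples and at 40.6 and 17.6 CPM in the P4 samples (log2FC 3.21, standard error 0.58, adjusted p = 0.007). LEFTY1 and LEFTY2, secreted inhibitors of NODAL that are also its targets, had log2FC values of 2.53 and 2.17 and missed the threshold (adjusted p = 0.0144 and 0.0131), with both P4 samples above both P1 samples. INHBA, which encodes the activin A chain, was at 7.22 and 7.18 CPM and at 1.61 and 0.471 CPM (log2FC -2.79, standard error 0.45, adjusted p = 0.00348). NODAL and INHBA were the 2 DEGs among 28 tested genes of this pathway, and each passed in 1 of the 4 fits without a library. BMP2, a ligand that drives differentiation, was at 19.1 and 18.0 CPM and at 3.30 and 1.78 CPM (log2FC -2.87, standard error 0.33, adjusted p = 2.84e-04), the only DEG among 20 tested BMP genes and one that passed in every such fit. BMP4 went the other way without passing, at a log2FC of 1.08 (adjusted p = 0.037). No gene was a DEG among the 26 tested genes of the FGF and ERK list or the 29 of the WNT list. Outside that list, and named after their values had been seen, the ligand gene WNT4 and WIF1, which encodes a secreted WNT inhibitor, were lower DEGs. WNT4 was at 1.83 and 4.25 CPM in the P1 samples and at 0.24 and 0.336 CPM in the P4 samples (log2FC -3.38, adjusted p = 0.00243), and WIF1 was at 5.27 and 5.29 CPM and at 1.03 and 0.606 CPM (log2FC -2.69, adjusted p = 0.00479). WNT4 passed in 1 of the 4 fits without a library and WIF1 in none. Nearest to the threshold in the FGF and ERK list was SPRY1, a feedback inhibitor (log2FC 1.27, adjusted p = 0.0177). In the WNT list these were FRZB, a secreted WNT inhibitor (log2FC -1.998, adjusted p = 0.011), and SFRP1 (log2FC -1.105, adjusted p = 0.0173).

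Of 27 tested pluripotency factors, 1 was a DEG, and the median log2FC was 0.21, or -0.04 without P4 replicate 1. DPPA2, a germ cell and pluripotency factor, was at 4.30 and 2.71 CPM in the P1 samples and at 12.6 and 22.6 CPM in the P4 samples (log2FC 2.33, standard error 0.34, adjusted p = 0.0017), and it passed in 2 of the 4 fits without a library. ZFP42 was at a log2FC of 1.16 and PODXL and ZIC2 at -0.87 and -1.08, none past the threshold. ERAS, an ES cell Ras gene on the X chromosome (named after its values had been seen), had a log2FC of 3.46 (adjusted p = 0.00968) but reached only 1.03 and 1.72 CPM in the P4 samples and passed in none of the fits without a library. No gene was a DEG among the 13 mesendoderm, 9 neuroectoderm and 11 amnion and trophoblast markers that could be tested. The marker sums over the 4 samples were 72.2 to 101 TPM for mesendoderm, with overlapping ranges in P1 and P4 hESCs. For neuroectoderm they were 348 and 275 TPM in the P1 and 272 and 274 TPM in the P4 samples, nearly touching. Of the 9 tested neuroectoderm markers, 5 had a positive and 4 a negative log2FC (median 0.02). The amnion and trophoblast sums were 37.8 and 52.2 TPM in the P1 and 25.3 and 31.7 TPM in the P4 samples. KRT7, a marker of amnion and trophoblast, had a log2FC of -1.09 (adjusted p = 0.0219). Of the 11 tested amnion and trophoblast markers, however, 6 had a positive and 5 a negative log2FC (median 0.16). CLDN4, a tight junction gene, was at 20.6 and 36.0 CPM and at 81.5 and 95.5 CPM (log2FC 1.65, standard error 0.27, adjusted p = 0.00393), the only DEG of 24 epithelial and mesenchymal genes, and it passed in 1 fit without a library. TEK, an angiopoietin receptor listed among the endothelial markers, was at 27.2 and 36.8 CPM in the P1 samples and at 2.09 and 1.31 CPM in the P4 samples (log2FC -4.23, standard error 0.32, adjusted p = 9.83e-06). Of the other endothelial markers, VWF, PECAM1 and CDH5 were at most 0.35 TPM in all 4 samples. TIE1 was at 2.12 and 3.72 TPM in the P1 and 2.22 and 3.28 TPM in the P4 samples, and CLDN5 reached 1.58 TPM in P4 replicate 2. The summed endothelial list, TEK included, was at 11.5 and 14.4 TPM in the P1 and 3.93 and 6.45 TPM in the P4 samples.

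At 20q11.21, 11 of 29 tested genes were DEGs (37.9%), all of them higher, and the median log2FC was 1.31. Next to TPX2 and BCL2L1, COMMD7, which regulates NF-kappaB, was at 29.97 and 32.9 CPM in the P1 samples and at 96.1 and 128 CPM in the P4 samples (log2FC 1.83, standard error 0.20, adjusted p = 2.02e-04). PDRG1 and the zinc finger gene PLAGL2 had log2FC values of 2.07 and 1.76. Across the 11 DEGs the log2FC kept to a range of 1.21, for BCL2L1, to 2.08, for TPX2. HM13 (log2FC 0.98, adjusted p = 0.0542) and ID1 (log2FC 1.14, adjusted p = 0.0438) did not pass. In the fits without 1 library the median of the band stayed between 1.20 and 1.47. In these fits the log2FC was 1.85 to 2.35 for TPX2, 1.61 to 2.03 for COMMD7 and 1.02 to 1.37 for BCL2L1. Of the other 43 tested spindle and mitosis genes besides TPX2, none was a DEG, although 39 of all 44 had a positive log2FC (median 0.33). AURKC, an Aurora kinase gene at 19q13.43 that is no member of the list and was named after its values had been seen, was a higher DEG, at 0.688 and 0.536 CPM in the P1 samples and 6.69 and 7.67 CPM in the P4 samples (log2FC 3.54, adjusted p = 9.93e-05). AURKA had a log2FC of 0.30 (adjusted p = 0.366) and NDC80 one of 0.84 (adjusted p = 0.0471). No DNA replication gene was a DEG among 41 (median 0.02).

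Target genes of p53, the transcription factor that halts the cycle or kills damaged cells, were mostly above their P1 level. Of 30 tested targets, 24 had a positive log2FC (median 0.51), 7 were higher at an adjusted p under 0.05 with no minimum fold change, where 2.54% of all tested genes were, and 1 was a DEG. This was CDKN1A, which encodes the cell cycle inhibitor p21, at 11.17 and 15.8 CPM in the P1 samples and 57.0 and 86.0 CPM in the P4 samples (log2FC 2.41, standard error 0.34, adjusted p = 0.00146). Its call was lost without either P1 replicate and without P4 replicate 2. PLK2, AEN and PHLDA3 followed with log2FC values of 1.37, 0.85 and 0.91 (adjusted p = 0.0209, 0.0183 and 0.0203). Of the genes of cell death control, BCL2L1 was the only DEG among 21 BCL2 and IAP family members (median 0.13). The proapoptotic BBC3 and PMAIP1 had log2FC values of 1.09 and 0.93 (adjusted p = 0.03 and 0.0674), and for PMAIP1 P4 replicate 2 (485 CPM) was well above P4 replicate 1 (249 CPM). BIRC5, which encodes survivin, was at a log2FC of 0.25 (adjusted p = 0.455), and SLC35F2, the solute carrier through which the compound YM155 enters cells, was at -0.41 (adjusted p = 0.29).

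Of 78 tested nuclear genes of the respiratory chain, CHCHD2 was lower and NDUFB11, an X-linked subunit of complex I, was higher, and 66 had a positive log2FC with a median of 0.17. NDUFB11 was at 63.6 and 60.1 CPM in the P1 samples and at 160 and 132 CPM in the P4 samples (log2FC 1.24, adjusted p = 0.00929), and it passed in none of the 4 fits without a library. The 13 mitochondrially encoded mRNAs had a median of -0.39, and their level differed between replicates of a line by more than that, with a standard deviation of 1.1 on the log2 scale. None of 24 glycolysis genes was a DEG, but 21 of them had a negative log2FC (median -0.26). The smallest adjusted p values were those of SLC16A1, a lactate transporter, and of PFKFB3 and PFKFB4, regulators of glycolytic flux, at log2FC values of -1.02, -1.01 and -1.21 (adjusted p = 0.0319, 0.0403 and 0.0488). LDHA, lactate dehydrogenase, was at -0.93 (adjusted p = 0.0707). There was no DEG among 83 cytosolic ribosomal protein genes (median 0.04), 28 genes of the integrated stress and unfolded protein responses (median 0.06), 18 genes of MHC class I presentation (median -0.22) or 21 DNA methylation enzymes (median -0.11), where TET1 was at -0.88 (adjusted p = 0.0124).

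**Figure D4:**
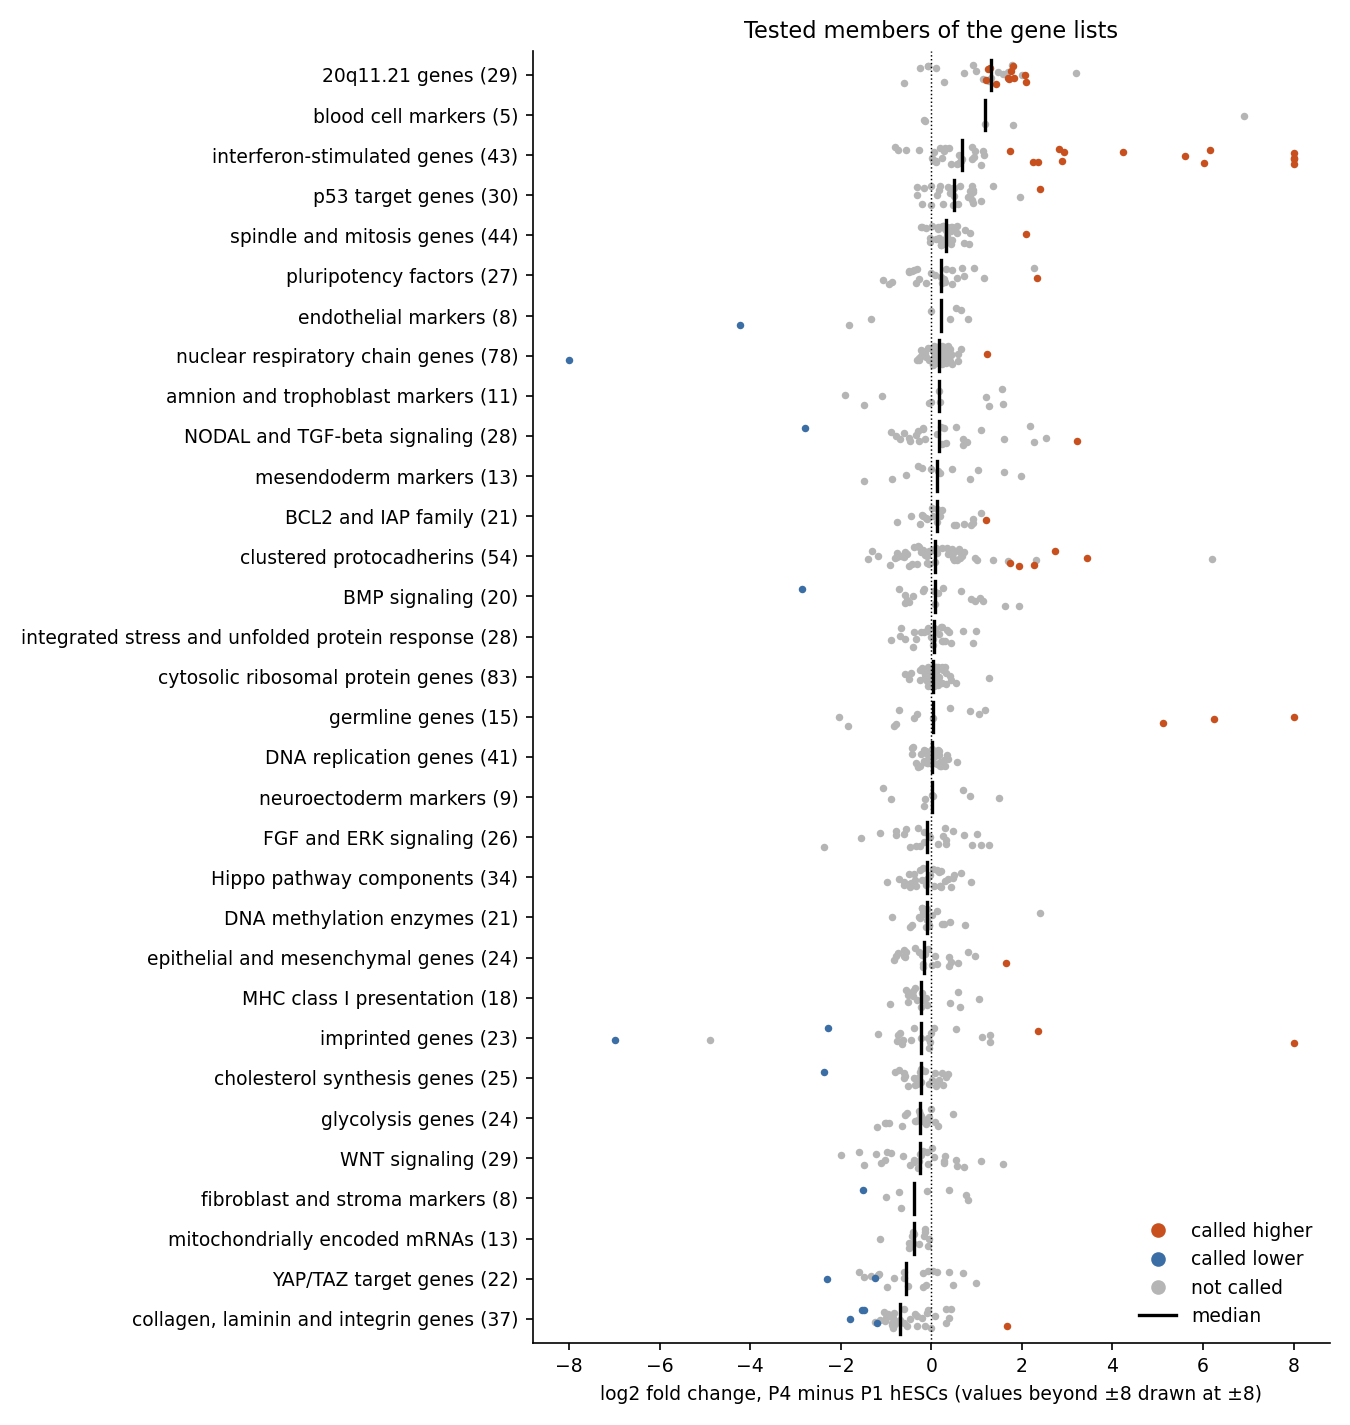
Each point is the log2FC (P4 minus P1 hESCs) of a tested member of a gene list, with the number tested in parentheses, a bar at the list's median and a dotted line at the median of all tested genes. Medians run from 1.31 for 20q11.21 genes to -0.69 for collagen, laminin and integrin genes, and the DEGs (orange and blue) include 14 interferon-stimulated and 11 20q11.21 genes.

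By position, Xp and the arms of chromosome 19 stood above the other arms. The median log2FC by arm was highest for Xp (0.26), 19q (0.17) and 19p (0.13) and lowest for 18p (-0.21) and 20p (-0.15). Xq was at 0.07, close to 20q as a whole at 0.06. Of the arms other than these that are often gained in cultured pluripotent cells, 1q, 12p and 17q were at -0.01, -0.06 and -0.01. Of 699 tested X-linked genes, 32 were higher (4.58%) and 12 were lower (1.72%). The higher ones include TMSB4X and NDUFB11, TIMP1 at Xp11.3, an inhibitor of matrix proteases (log2FC 1.47, adjusted p = 0.00353, named after its values had been seen), ZXDA, a zinc finger gene that was not detectable in P1 hESCs and was at 2.51 and 6.22 CPM in the P4 samples, and CHMP1B2P, a pseudogene that was at least 34.9-fold higher. The lower ones include COL4A5 and COL4A6. The numbers of higher and lower X-linked DEGs fell to 8 and 3 without P1 replicate 2, to 13 and 9 without P1 replicate 1, to 11 and 7 without P4 replicate 2 and to 24 and 7 without P4 replicate 1. The clustered protocadherins at 5q31.3, adhesion genes that share exons within a cluster, had 5 higher DEGs among 54 and no lower one, but a median of 0.09. PCDHA6 was at 1.00 and 0.315 CPM and at 8.62 and 5.85 CPM (log2FC 3.44, standard error 0.47, adjusted p = 0.0012), and PCDHB16 was at 2.78 and 4.82 CPM and at 15.7 and 13.3 CPM (log2FC 1.93, standard error 0.30, adjusted p = 0.00234). Shared exons make the counts of PCDHA6, PCDHA1 and PCDHGA3 uncertain, and between 1 and 3 of the 5 passed without a single library. Over the whole table, 65 of the higher DEGs lay in 21 runs of neighbouring higher DEGs whose starts were at most 250 kb apart, and 41 of the lower DEGs lay in 19 such runs. The number of runs for genes drawn from all tested genes was not computed, so that no excess of neighbours can be read from these counts. Some neighbours also overlap or are alike in sequence and may share reads.

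The same genes were looked up in P3 against P2 hESCs, which share no sample with P4 and P1 hESCs. Both contrasts came from the same fit, with a common filter and estimate of the spread, and all lines are passages of H9. Calls shared by the contrasts are therefore not independent. Between P3 and P2 hESCs, 667 genes passed the thresholds (3.42% of those tested, 1.34% higher and 2.08% lower in P3 hESCs). Of the 186 genes that were higher in P4 than in P1 hESCs, 164 (88.2%) were also above P2 in P3 hESCs, where 49.6% of all tested genes were, and 93 were DEGs in that direction, or 35.5% of the higher DEGs of P3 hESCs. Of the 226 lower genes, 208 (92.0%) had the same sign and 89 (39.4%) were DEGs, or 22.0% of the lower DEGs of P3 hESCs. CHCHD2, CRYZ, TYW3, ZNF680, ZNF726 and TRIM4 were lower DEGs in P3 hESCs as well, with fitted log2FC values of -9.15, -10.24, -7.16, -7.90, -7.26 and -8.92. Of the metallothioneins, MT2A and MT1X had log2FC values of -6.70 and -4.28 in P3 against P2 hESCs. For interferon-stimulated genes, 11 of 43 were higher DEGs and 1 was a lower DEG in P3 hESCs, with log2FC values of 4.42, 8.21 and 4.63 for IFIT1, IFIT2 and IFIT3.

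Of the higher genes, 8 were at or under 3 counts in every P1, P2 and P3 sample: ZNF667, ZNF667-AS1, ZNF471 and ZIM2-AS1 of the block at 19q13.43, ZXDA, ZNF300P1 and the pseudogenes FRG1BP and FRG1CP, a set named after its values had been seen. ZNF300P1 at 5q33.1 was at 8.72 and 5.48 CPM in the P4 samples, and FRG1CP at 20q11.1 was at 3.19 and 3.90 CPM. PEG3 was at 0.19 and 0.697 CPM in the P3 samples. UBBP4, a ubiquitin pseudogene named after its values had been seen, was between 0.0632 and 0.126 CPM in the P1, P2 and P3 samples and at 22.0 and 27.6 CPM in the P4 samples. Only CDKN1A and ZNF229 were called in opposite directions, with log2FC values in P3 against P2 hESCs of -1.68 and -3.50. The median log2FC of p53 targets was 0.51 in P4 against P1 hESCs and -0.83 in P3 against P2 hESCs, with 12 lower DEGs among 30, whereas that of 20q11.21 genes was 1.31 and 1.41 and that of YAP/TAZ targets was -0.56 and -1.22. The difference between the 2 contrasts was not tested.

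**Figure D5:**
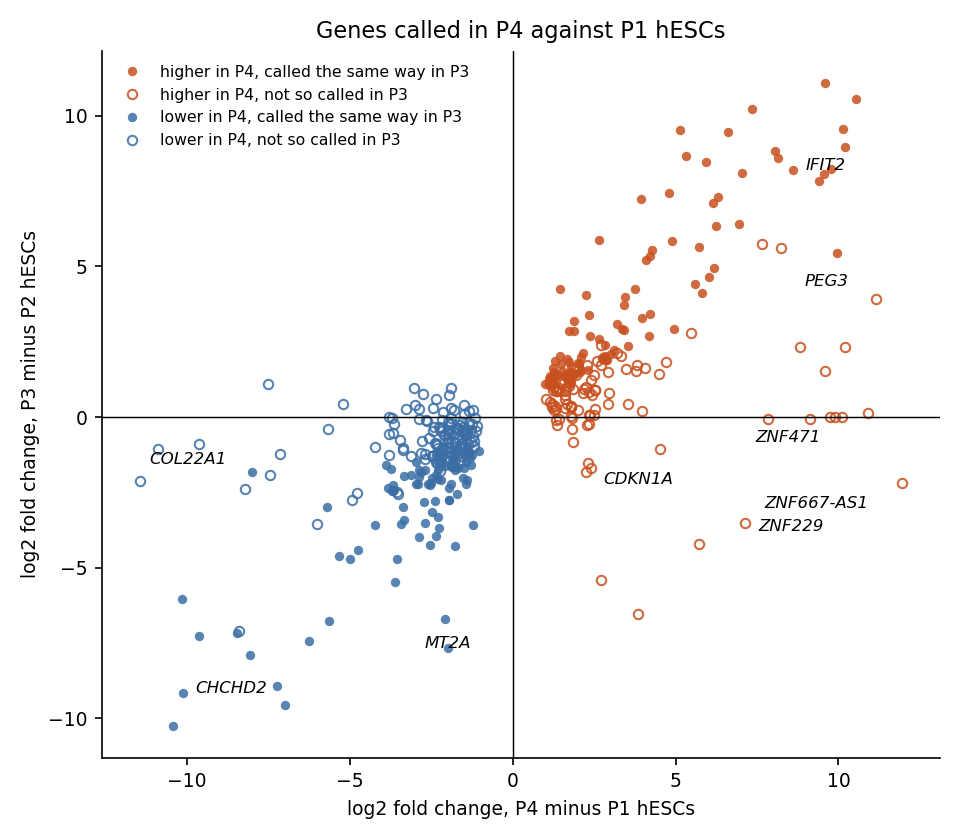
Each point is a DEG of P4 against P1 hESCs, with its log2FC there on the horizontal axis and its log2FC in P3 against P2 hESCs on the vertical axis, and filled points are DEGs in the same direction in both. CHCHD2 lies far down in both, PEG3, ZNF471 and ZNF667-AS1 lie far to the right with little or no detectable transcript in P3 hESCs, and CDKN1A and ZNF229 lie below 0 on the vertical axis.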

How the data were processed

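RNA-seq libraries (TruSeq Stranded mRNA) of 8 H9 samples, 2 each of P1, P2, P3 and P4 hESCs, were analysed from gene tables that, per the labels' processing notes, the authors made by trimming with Trim Galore, aligning with STAR 2.7.3a to GRCh38 and counting with RSEM 1.3.3. The annotation and the strand setting of the counting are not given in the sources used here. The deposited expected counts are RSEM's estimates, of which 12.0% were not whole, and they were rounded. The deposited TPM values, which the authors' RSEM run scaled by length and library, served for marker levels and for alternatives. Totals were 26874899 to 38095600 counts per library.

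Genes were kept with edgeR's filterByExpr (19499 of 60675), scaled by TMM and fitted with edgeR 4.0.16 (R 4.3.3) in a quasi-likelihood model with a mean for each of the 4 lines over all 8 samples, which leaves 4 residual degrees of freedom. The contrast was P4 minus P1 hESCs, with thresholds of 1 for the absolute log2 fold change and 0.01 for the adjusted p. Standard errors were the log2 fold change divided by the square root of F. The fit was tested on simulated data. Named genes were the 12 largest rises and falls with a symbol, the 8 most abundant DEGs each way by TPM, up to 4 members of each list with the smallest p, and genes the study discusses, and others are marked. The comparison, the gene lists and the named genes were chosen with earlier results of these data known. Alternatives were DESeq2 1.42.0, its size factors, other filters, limma 3.58.1 on log2(TPM + 1) and log2(TPM + 0.1), other samples in the fit, mitochondrial terms and leaving out each library. Promoters came from RefSeq (GRCh38.p14). Results of some genes are not reported here.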

Additional observations from a re-analysis of the deposited data

How the results depend on the processing

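The total, higher and lower DEG counts (412, 186 and 226) were 875, 369 and 506 with DESeq2, 1191, 540 and 651 without a filter, 171, 92 and 79 on log2(TPM + 1), 163, 85 and 78 on log2(TPM + 0.1) and 1159, 496 and 663 at an adjusted p under 0.05 with no minimum fold change (the looser threshold), and they were 123 to 296, 53 to 160 and 70 to 154 without 1 library. No DEG had the other sign in any of these fits. The DEGs also called the same way in P3 against P2 hESCs (182) were 352, 451, 73, 75 and 507 in the same order, and 83 to 132 without 1 library. Higher 20q11.21 DEGs (11) were 18 without a filter, 4 and 2 on the TPM scales, 17 at the looser threshold and 2 to 9 without 1 library. Lower collagen, laminin and integrin DEGs (4) were 8 with DESeq2, 2 with only the 4 samples, 0 and 0 on the TPM scales, 2 with a mitochondrial covariate, 7 at the looser threshold and 0 to 4 without 1 library. Higher chromosome 19 zinc finger DEGs (11) were 17, 20 and 17 with DESeq2, without a filter and at the looser threshold. Protocadherin DEGs (5) were 8 without a filter, 2 and 1 on the TPM scales and 1 to 3 without 1 library. Higher and lower X-linked DEGs (32 and 12) were 62 and 24, 70 and 23, 9 and 5, 10 and 5, and 84 and 31 under DESeq2, no filter, both TPM scales and the looser threshold, and 8 to 24 and 3 to 9 without 1 library. Higher interferon-stimulated DEGs were 6 to 12 without 1 library, and their list's median (0.67) was 0.70 without a filter, 0.485 and 0.617 on the TPM scales, 0.782 with the mitochondrial covariate and 0.651 to 0.859 without 1 library. The 20q11.21 median was 1.14 on log2(TPM + 1) and 1.20 to 1.47 without 1 library. Medians changed sign without 1 library, with ranges of -0.0412 to 0.225 for pluripotency factors, -0.0194 to 0.292 for NODAL signaling, -0.274 to 0.111 for epithelial and mesenchymal genes, -0.0572 to 0.584 for germline genes and -0.072 to 0.356 for endothelial markers, the last at -0.00452 on log2(TPM + 1), and with the covariate the epithelial and germline medians were 0.02 and -0.0724. YAP1 was at 0.16 and 0.165 on the TPM scales and -0.495 to 0.0835 without 1 library. The cause was not tested for any of these.

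The replicate numbers give 2 pairs that share only a number (correlation of deviations -0.0532), and a fit with the replicate block called 387 DEGs, 359 of them among the 412. With 2 samples a line, no outlying sample could be sought within a line, and a gene under 3 counts cannot be told from one that is absent.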
